A study of Nannospalax ehrenbergi and Mus musculus with 25 samples.

Results

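The 7 genes of the oncofetal Hmga, Igf2bp and Lin28 families considered here were followed through all 25 RNA-Seq libraries of the study: Hmga1, Hmga2, Igf2bp1, Igf2bp2, Igf2bp3, Lin28a and Lin28b. These 7 rows were taken by name from the Spalax table of 27988 genes and from the mouse table of 47593 genes, and all 7 were found in both. The families were chosen with the comparison of tumor and uninjected side already known, in which mouse Hmga2 stood among the largest differences. Values of the 7 genes in the comparisons of tumor tissue are therefore given as a description. Calls of members in these comparisons are listed beside the share of all genes called, and are not read as a test of the members.

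Spalax, the blind mole rat, and C57BL/6 mice received a single injection of the carcinogen 3-methylcholanthrene (3MCA) under the skin of the left flank of the neck. IS denotes the injected side, which is the tumor where one grew, and UIS the uninjected side of the neck of the same animal. The 16 Spalax libraries came from 12 wild-caught animals. They held 4 untreated controls, 4 tolerant animals that were injected but stayed free of tumors when sampled on the IS after 18 or 30 months, and the IS and UIS of 2 animals with a granuloma, a benign growth of spindle cells with fibrosis (animal 600 after 14 months, animal 976 after 16 months) and of 2 with a fibrosarcoma (animal 2240 after 18 months, animal 2230 after 30 months). The 9 mouse libraries came from 6 animals: 3 untreated controls and the IS and UIS of 3 mice with a fibrosarcoma after 14 weeks (animal 1019), 12 weeks (1023) and 11 weeks (512). The mice were male and 3 to 4 months old. The Spalax controls, both granuloma bearers, fibrosarcoma bearer 2240 and tolerant animal 2375 were female, and fibrosarcoma bearer 2230 and the other tolerant animals were male. Exact Spalax ages were unknown and were put at 2 to more than 10 years for treated animals. Each library came from 1 biopsy of 1 animal.

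HMGA proteins are small chromatin proteins that bind AT-rich DNA through AT-hooks and bend it, which lets transcription factors assemble. IGF2BP proteins bind messenger RNAs, including those of Igf2, Myc and other growth genes, and protect them from decay, in part by reading the m6A mark. LIN28 proteins bind the precursor of the microRNA let-7 and block its maturation, and mature let-7 in turn represses Hmga2, the Igf2bp genes and Lin28 itself. The families are active in the embryo, are largely silent in adult muscle and return in many tumors.

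The let-7 link can be read in the sequences. The arm of the mouse let-7a precursor that gives the mature microRNA, taken from the GENCODE vM21 transcript of Mirlet7a-1 (GRCm38, chr13:48538179-48538272, minus strand), is shown first, with the seed (bases 2 to 8) in capitals, written in DNA letters. All 11 Mirlet7 hairpins of the annotation hold this seed. The other lines show 1 match to the seed in the 3′ untranslated region (UTR) of each mouse member, with the match in capitals (8 letters, CTACCTCA, or the 7 letters CTACCTC for Hmga1) and the bases around it, 30 in all.
let-7a arm of Mirlet7a-1: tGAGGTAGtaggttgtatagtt
Hmga1, chr17:27563281-27563310, plus strand: ctgttcacaaaCTACCTCtggacggttgtg
Hmga2, chr10:120364213-120364242, minus strand: acattcaatttCTACCTCAgcatcagttgg
Igf2bp1, chr11:95961767-95961796, minus strand: tgcgaagtaaaCTACCTCAaggtgtgaagt
Igf2bp2, chr16:22059462-22059491, minus strand: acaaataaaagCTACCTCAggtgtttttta
Igf2bp3, chr6:49086776-49086805, minus strand: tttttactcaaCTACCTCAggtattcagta
Lin28a, chr4:134005178-134005207, minus strand: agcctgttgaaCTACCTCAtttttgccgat
Lin28b, chr10:45381011-45381040, minus strand: gggcgggaagtCTACCTCAtgcaagcacag

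These are the first 8-letter matches in each 3′ UTR, and for Hmga1 the sole 7-letter match. In the longest annotated 3′ UTR of each gene, the 7-letter match occurred 4 times in Hmga2, Igf2bp1 and Lin28b, 2 times in Lin28a and 1 time in Hmga1, Igf2bp2 and Igf2bp3. Only the transcribed strand was searched, and each 8-letter match also counts as a 7-letter match. Among all 21004 mouse 3′ UTRs, 8.95% held a 7-letter match and 3.02% an 8-letter match. Long 3′ UTRs hold it more often: among those within 25% of the length of the Igf2bp1 region (6337 bases) the share was 32.2%, against 8.01% at the length of Hmga1 (1183 bases). A match describes letters only, and the Spalax 3′ UTRs were not analysed here. The let-7 level itself was not measured in these libraries, which were made from longer RNA: the 11 mouse Mirlet7 rows reached at most 5.79 normalised counts.

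Each library held 17025447 to 31179183 reads assigned to genes, and 1 read was worth 0.517 to 1.44 normalised counts, the unit of all levels given here (read counts divided by a size factor for each library). All 5 skeletal muscle markers measured in Spalax and all 8 in mice were called lower in tumors than in UIS, whereas 7 or 8 of 8 markers of proliferating cells were called higher in each of the 3 tumor types, so the labels of tissue and side matched the markers. Summed muscle markers were 113 to 2787 in the Spalax tumors against at least 667751 in all other Spalax libraries. Sums of markers of other cells differed as well, with overlap. Summed fibroblast markers were 898827 and 1891385 in granulomas and 115072 and 432156 in fibrosarcomas. The other Spalax libraries held 8269 to 202555, a range that took in fibrosarcoma 2240. Summed macrophage markers were 7827 to 32013 in the tumors against 842 to 11541, with granuloma 600 and fibrosarcoma 2240 inside that range. Of 8 fibroblast markers, 5 were higher in Spalax fibrosarcoma than in UIS and 2 were called (17.4% of all genes called higher). In granuloma 7 were higher and 6 were called (11.7% of all genes). Some libraries stood apart. The UIS of mouse 1019 carried the proliferation markers at 11.9% of their level in its tumor (3.09% in mouse 1023 and 0.490% in mouse 512). The tumor of mouse 512 expressed markers of satellite cells and regenerating muscle at a sum of 26363, against at most 129 in the other mouse tumors. Tolerant animal 2251 had the highest fibroblast and macrophage sums and, with the UIS of animal 976, the lowest muscle sums among libraries without a tumor. The part of these differences in the results below was not tested.

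Hmga2 separated tumor from muscle in both species, with 1 exception. In mice it stood at 4576, 4494 and 4579 normalised counts in the tumors of animals 1019, 1023 and 512. Control muscle held 9.78, 0 and 0, and the UIS held 689, 10.3 and 4.32 in the same animal order. The 3 tumors did not overlap with any muscle library, and the UIS of mouse 1019 was the sole muscle library above 10.3, with 15.1% of the level in its tumor. In the bulk tissue, more cells with a transcript and more transcript per cell cannot be told apart.

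**Figure D1:**
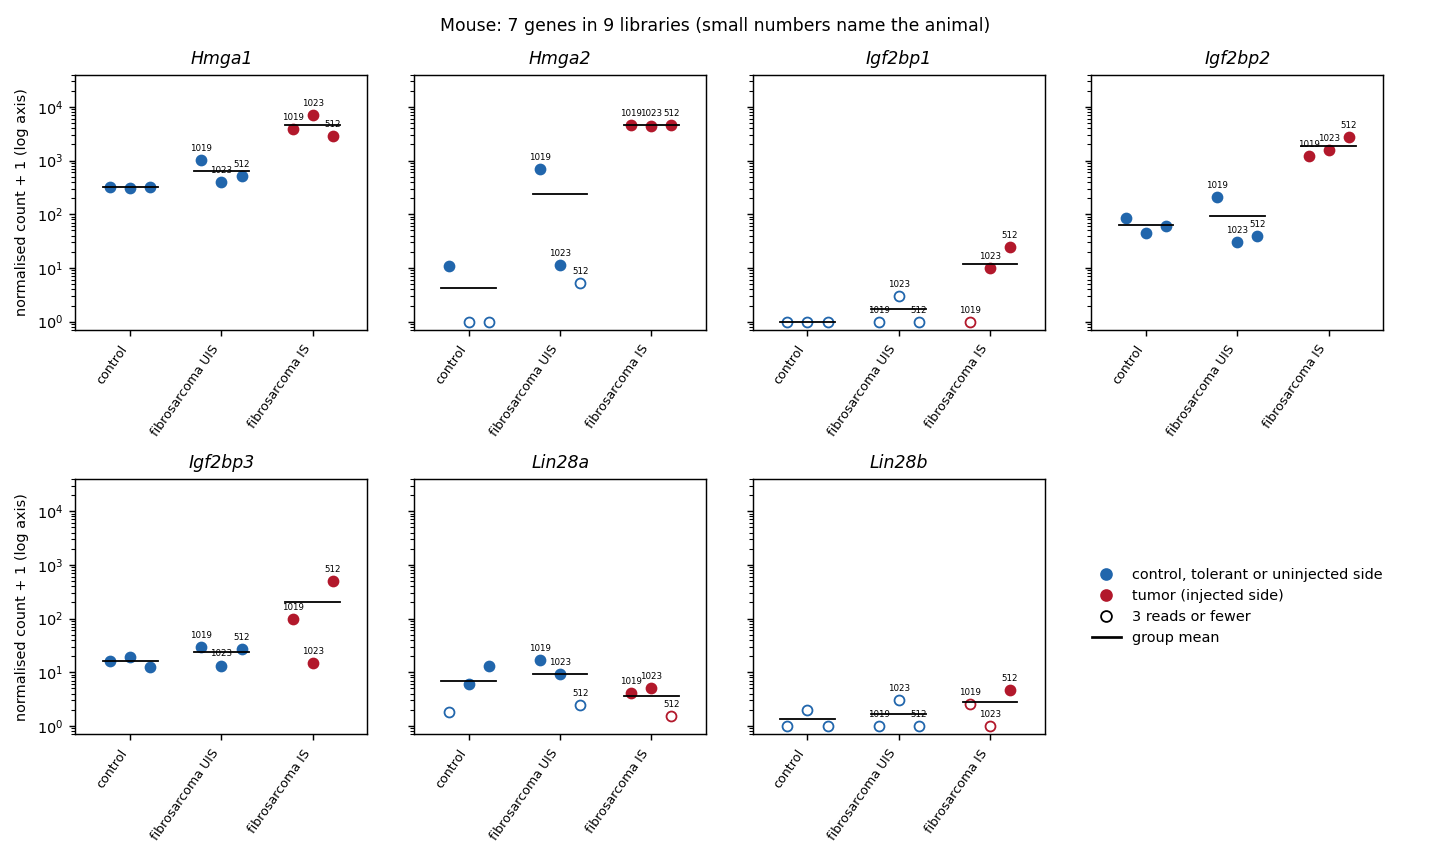
Normalised count plus 1 (log axis) of the 7 genes in the 9 mouse libraries, by group. Each point is 1 library, blue for control and UIS and red for tumor, open where 3 reads or fewer were counted, and the black line is the group mean. Hmga2 lies between 4494 and 4579 in the 3 tumors, and the UIS of animal 1019 (689) lies between them and the other muscle libraries.

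In Spalax the Hmga2 level was 192 in the granuloma of animal 600, 84.6 in that of animal 976 and 878 in the fibrosarcoma of animal 2240. The 2 tumor-free groups and the 4 UIS libraries held 0 to 3.75, or at most 5 reads each. The fibrosarcoma of animal 2230 held 1.80, or 3 reads, and so lay inside the range of muscle. The ratio of tumor to UIS, which rests on 2 reads in the UIS, was 79.8 in animal 600 (95% counting interval 21.9 to 662), and 724 on 1 read in animal 2240 (130 to 28620). In animal 976, where no read was counted in the UIS, the tumor was at least 23.9-fold higher, against a floor of 3 reads. These intervals and floors cover counting error only.

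Hmga1, the other AT-hook gene of the family, was expressed in every muscle library of both species. Its level in Spalax was 522 to 1019 in controls, 478 to 785 in tolerant animals and 469 to 692 in the UIS. In the granulomas it was 1619 and 1205, which is 2.34 and 2.14 times the UIS of the same animals. The fibrosarcoma of animal 2240 reached 16013, or 34.1 times its UIS, while that of animal 2230 stood at 240, 2.86-fold below its UIS and lower than any muscle library of the species. The 2 fibrosarcomas thus lay at opposite ends of the 16 libraries.

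Mouse Hmga1 stood at 313 to 320 in controls, 392 to 1030 in the UIS and 2895 to 7052 in tumors, with no overlap between tumors and muscle. The tumor-to-UIS ratio was 3.79 in animal 1019, 18.0 in animal 1023 and 5.71 in animal 512.

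**Figure D2:**
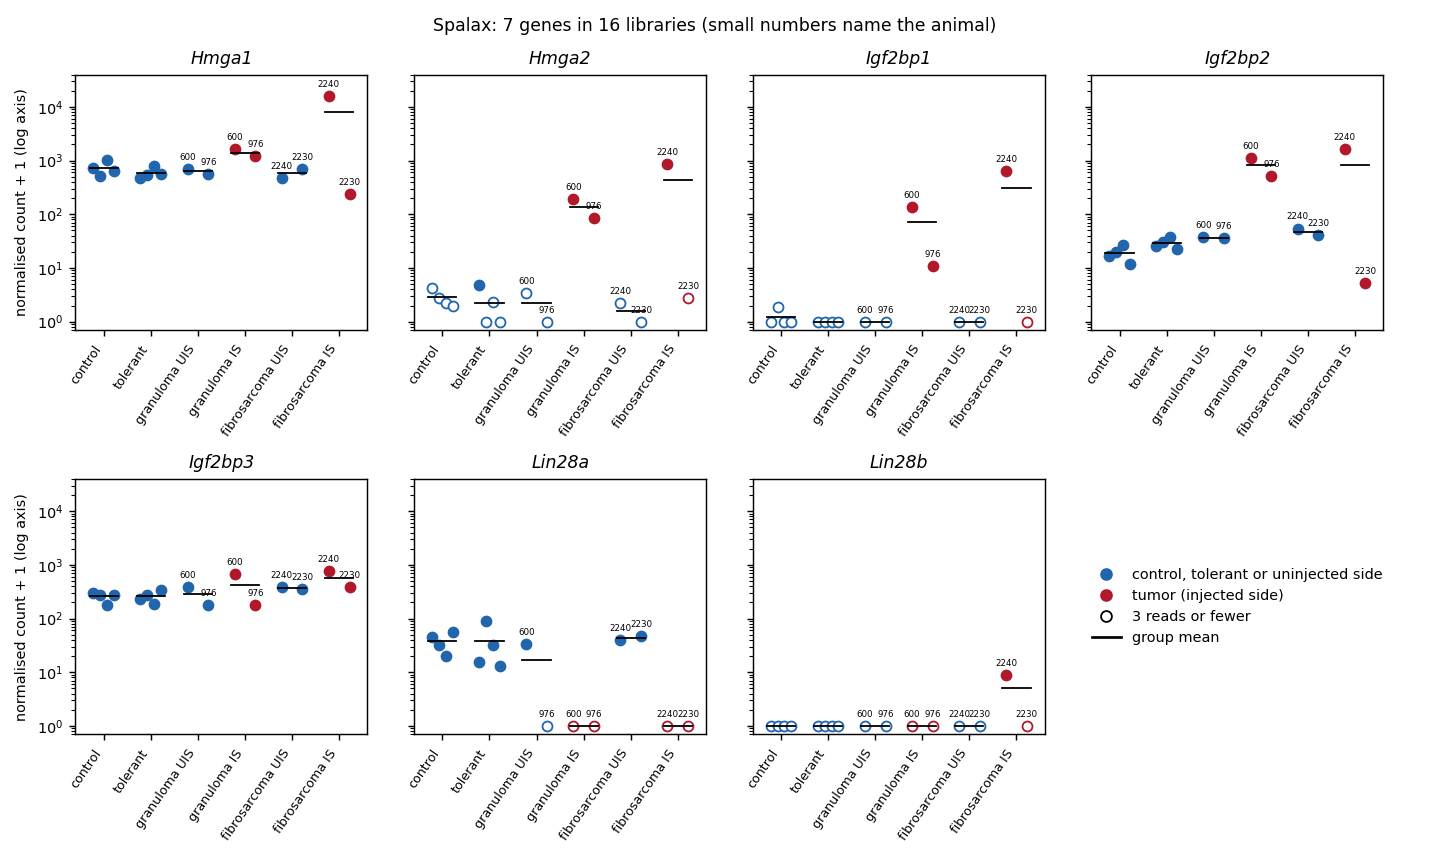
Normalised count plus 1 (log axis) of the 7 genes in the 16 Spalax libraries, by group, drawn as for the mouse. Hmga2, Igf2bp1 and Igf2bp2 are raised above muscle in the tumors of animals 600, 976 and 2240, whereas the fibrosarcoma of animal 2230 lies within or below the muscle libraries for all members except Igf2bp3, where it stands at 387.

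Igf2bp2, the member of its family that many adult tissues keep, was low in muscle and above every muscle library in 3 of 4 Spalax and 3 of 3 mouse tumors. In Spalax it stood at 10.9 to 26.2 in controls, 21.4 to 37.0 in tolerant animals and 35.3 to 53.3 in the UIS. The granulomas held 1127 and 513, and the fibrosarcoma of animal 2240 held 1627. These 3 tumors were 31.2, 14.5 and 30.5 times their UIS. The fibrosarcoma of animal 2230 held 4.20, from 7 reads, the lowest of the 16 libraries and 9.48-fold below its UIS.

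In mice, Igf2bp2 was 43.2 to 85.6 in controls, 28.9 to 204 in the UIS and 1234, 1543 and 2709 in the tumors of animals 1019, 1023 and 512. The highest UIS value was again that of mouse 1019, at 16.6% of its tumor. The tumor-to-UIS ratio was 6.04 in mouse 1019, 53.4 in mouse 1023 and 69.7 in mouse 512.

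Igf2bp1, which is confined to the embryo in most tissues, was close to absent from muscle of both species. Among the 12 Spalax libraries without a tumor, 1 read was found in total, in a control. The granulomas held 134 and 9.67 and the fibrosarcoma of animal 2240 held 628. Against the floor of 3 reads the tumor was at least 37.1-fold higher than the UIS in animal 600, at least 2.74-fold in animal 976 and at least 173-fold in animal 2240. The fibrosarcoma of animal 2230 had no read, which allows up to 1.80 normalised counts.

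Mouse Igf2bp1 stayed low even in tumors, with 0, 8.90 and 23.2 in animals 1019, 1023 and 512. It was 0 in the 3 controls and at most 2.06 in the UIS. The gene was thus detected in 2 of 3 mouse tumors and 3 of 4 Spalax tumors. In neither species did it pass the filter on low values when tumors were compared with UIS.

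Igf2bp3 was expressed in Spalax muscle as well as in the tumors, and was nearly silent in mouse muscle. Spalax libraries without a tumor held 180 to 383. The granulomas of animals 600 and 976 held 683 and 176 and the fibrosarcomas of animals 2240 and 2230 held 770 and 387, so that tumors 600 and 2240 lay above all muscle, tumor 2230 at its upper edge and tumor 976 at its lower edge. Mouse controls held 11.3 to 18.1 and the UIS 12.4 to 29.0, against 96.7, 13.6 and 506 in the tumors of animals 1019, 1023 and 512. Tumor 512, with the highest value, is the one that expressed the regeneration markers.

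In the mouse annotation, 18.7% of the exon bases of Igf2bp3 overlap Malsu1 on the opposite strand. The libraries were strand-specific, but whether counting used the strand is not given in the sources used here. Malsu1, which encodes a mitochondrial ribosome factor, was lower in the mouse tumors (165 to 254) than in their UIS (1119 to 1522), opposite in direction to Igf2bp3 in tumors 1019 and 512. In the other members the overlap with genes of the opposite strand was 5.86% of exon bases or less. The overlap was not examined in Spalax, where Malsu1 stood at 315 to 963 in libraries without a tumor and 278 to 374 in tumors.

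Lin28a gave the reverse of the other members in Spalax. Its level was 18.7 to 54.7 in controls, 12.1 to 88.7 in tolerant animals and 32.6, 0, 38.8 and 45.5 in the UIS of animals 600, 976, 2240 and 2230. No read was counted in any of the 4 tumors. The UIS of animal 976, the library with the lowest summed muscle markers outside the tumors, had none either.

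Relative to the 3-read floor, Lin28a was at least 15.0-fold lower in the tumor than in the UIS of animal 600, at least 21.0-fold lower in animal 2240 and at least 25.3-fold lower in animal 2230. Over the 16 libraries the genes closest to it were Asb16 (r = 0.97) and Aqp4 (r = 0.97), the latter a water channel of fast muscle fibers. This is a description over libraries that share tissue type.

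Mouse Lin28a was near the limit of detection, at 0.815 to 12.1 in controls, 1.44 to 15.7 in the UIS and 0.526 to 4.15 in tumors. Lin28b, the paralog most often turned on in tumors, was absent from 15 of 16 Spalax libraries and stood at 7.99 (13 reads) in the fibrosarcoma of animal 2240. In mice it reached at most 3.68, in the tumor of animal 512. Over the 7 tumors, Lin28a was thus at most 4.15 and Lin28b at most 7.99. This Lin28b value came from the Spalax tumor with the highest Hmga2 (878) and Igf2bp2 (1627). A link between these levels was not tested.

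Levels of different genes can be compared in mice after division by exon length. As RPKM (reads scaled to exon length in kilobases and to library size), the tumors held 160 ± 69.3 for Hmga1, 49.9 ± 2.98 for Hmga2, 18.2 ± 7.47 for Igf2bp2 and 1.87 ± 2.36 for Igf2bp3 (mean ± SD, n = 3). Igf2bp1, Lin28a and Lin28b were at 0.0802 ± 0.0886, 0.0481 ± 0.0339 and 0.0144 ± 0.0149. Hmga1, Hmga2 and Igf2bp2 did not overlap with one another, whereas the 3 lowest genes could not be ordered beyond their spread. In control muscle, Hmga1 led with 6.40 ± 0.705, followed by Igf2bp2 with 0.371 ± 0.153, while Hmga2 was at 0.0219 ± 0.0380.

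Differences within an animal show how far the tumors varied. On the log2(value + 1) scale, Hmga2 was higher in the tumor by 5.82 and 6.42 in the granuloma bearers, by 8.63 in Spalax 2240 and by 2.73, 8.63 and 9.75 in mice 1019, 1023 and 512. Igf2bp2 was higher by 4.92, 3.82 and 4.90 in Spalax 600, 976 and 2240 and by 2.59, 5.69 and 6.09 in the mice, and lower by 2.97 in Spalax 2230. The smallest difference among the mice belonged to animal 1019 for Hmga1, Hmga2 and Igf2bp2, and its UIS held the highest muscle level of each.

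**Figure D3:**
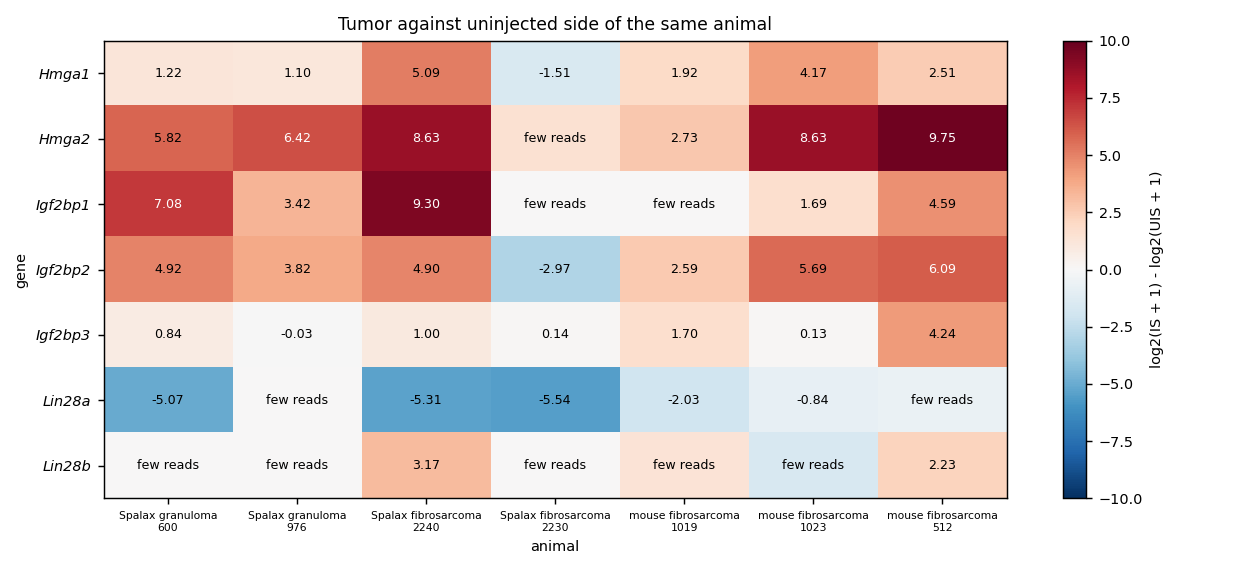
Difference between tumor and UIS of the same animal, log2(IS + 1) minus log2(UIS + 1), for the 7 genes (rows) in the 7 tumor-bearing animals (columns). Red is higher in the tumor and blue lower, and cells with 3 reads or fewer on both sides are marked. Spalax 2230 is the one animal with lower Hmga1 (-1.51) and Igf2bp2 (-2.97) in its tumor.

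Across libraries, Hmga2 went with Igf2bp2 (r = 0.88 over 16 Spalax and 0.93 over 9 mouse libraries, on log2 values) and, in Spalax, with Igf2bp1 (r = 0.95). Hmga1 and Hmga2 had r = 0.82 in Spalax and 0.94 in mice. The pairs of Igf2bp3 with Hmga1, Hmga2 and Igf2bp2 were looser, at 0.46 to 0.55 in Spalax and 0.53 to 0.70 in mice. Libraries of a tumor and its UIS come from 1 animal and tumors differ from muscle in most genes, so these values describe the libraries and carry no test.

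The genes most like each member by the same measure were, for Spalax, Ptgs2 (0.97) and Stk39 (0.96) with Hmga2, Cttnbp2 (0.95) and Snapc3 (0.93) with Hmga1, Gabbr1 (0.95) and Ptprn (0.94) with Igf2bp2, Znf804b (0.99) and Rap1gds1 (0.96) with Igf2bp1, and Dlc1 (0.86) and Nf2 (0.83) with Igf2bp3. Ptgs2 encodes cyclooxygenase-2. In mice they were Sprr1a and Cdkn2a (0.99 each) with Hmga2, Ptprn and Grm7 (0.99 each) with Hmga1, Orc1 and Tubb5 (0.99 each) with Igf2bp2, Tmem144 (0.98) and Lad1 (0.95) with Igf2bp3, and C2cd4c (0.92) and Klf4 (0.89) with Lin28a. Cdkn2a encodes the cell cycle inhibitor p16 and Orc1 a subunit of the origin recognition complex. All were picked from 16055 Spalax or 16670 mouse genes.

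In the comparison of granuloma IS with UIS across all genes (limma on log2(value + 1), Benjamini-Hochberg adjusted p of at most 0.05), 4 of the 7 members passed the filter of 10 normalised counts in at least 2 libraries. Hmga2 (log2 difference 6.12, SE 0.98) and Igf2bp2 (4.37, SE 0.58) were among the genes called higher, which made up 11.7% of the 14735 genes tested. No member was among the 12.6% called lower. Hmga2 passed the filter only through the tumors, and nothing is read from its call. Hmga1 (1.16, SE 0.35) and Igf2bp3 (0.41, SE 0.79) were not called, but Hmga1 was called by DESeq2 (1.19) and under total-read scaling (1.90). Without any 1 of the 4 libraries, 0 genes of the whole table were called. Scaling to equal total reads moved the median over all genes from -0.01 to 0.72 (in Spalax fibrosarcoma from 0.03 to 0.83, in mouse from 0.11 to 1.16 and against tolerant muscle from 0.06 to 0.71) and turned the split of 1718 higher and 1863 lower calls into 3380 and 1129.

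In Spalax fibrosarcoma, 4 members passed the filter, and Hmga2 and Igf2bp1 did not because only the tumor of animal 2240 expressed them. No member was among the 17.4% of 14696 genes called higher and Lin28a (-5.43, SE 0.51) was among the 19% called lower. Lin28a passed the filter only through the UIS, and nothing is read from its calls here. Hmga1 (1.79, SE 2.04) and Igf2bp2 (0.97, SE 2.80) had standard errors larger than their differences, with the tumors of animals 2240 and 2230 on opposite sides of their UIS. Without tumor 2230, Hmga1 (4.81), Igf2bp2 (5.11) and Igf2bp3 (1.07) were called higher beside 7255 of 15444 genes called in either direction. Hmga2 and Igf2bp1 then passed the filter only through tumor 2240, and nothing is read from their calls. Without tumor 2240, Igf2bp2 was called lower (-3.18) and Lin28a stayed called (-5.43), beside 7900 of 15377 genes. Without the UIS of either animal, limma called 0 genes of the whole table. Under total-read scaling the 2550 higher and 2789 lower calls became 5180 and 1670.

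In mouse fibrosarcoma, 4 members passed the filter. Hmga1 (2.87, SE 0.47), Hmga2 (7.04, SE 1.72) and Igf2bp2 (4.79, SE 0.76) were among the 22.8% of 15220 genes called higher. None was among the 22.3% called lower, and Igf2bp3 (2.02, SE 1.24) was not called by limma. DESeq2 called Igf2bp3 (3.16), beside 8174 of the 15220 genes, and gave Hmga2 (4.18) no adjusted p. Hmga2 passed the filter only with the tumor values, and nothing is read from its call. Without the UIS of mouse 1019 the Hmga2 difference was 9.20. It was 7.03 without tumor 1019, 7.05 without tumor 1023, 6.23 without the UIS of mouse 1023 and 4.25 in edgeR, and was not called in these 4 fits. Igf2bp3 was 3.33 and called without tumor 1023, where 4258 genes were called in place of 6870. Total-read scaling changed 3469 higher and 3401 lower calls to 7574 and 1676.

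Comparing all 4 Spalax tumors with the injected muscle of the 4 tolerant animals asks how tumor tissue differs from tissue that met the carcinogen without a tumor. No member was among the 22.4% of 14578 genes called higher, and Lin28a (-4.79, SE 0.68) was the one member among the 24% called lower. Lin28a passed the filter only through the tolerant muscle, and nothing is read from its call. Igf2bp2 (3.21, SE 1.58), Hmga1 (1.51, SE 1.03) and Igf2bp3 (0.80, SE 0.46) were not called by limma. With the same libraries, Igf2bp2 was called by edgeR (4.86) and DESeq2 (4.84), beside 6422 and 7317 of the 14578 genes. It was also called in 1 model over the species (3.21), beside 7694 genes. Hmga1 was called by DESeq2 (2.99) and Igf2bp3 under total-read scaling (1.45). Without tumor 2230, Igf2bp2 (5.10) and Hmga1 (2.44) were called higher, beside 6281 of 14907 genes called in either direction. Without tumor 976, Igf2bp3 (1.23) was called, beside 5639 of 14838 genes. Hmga2 stayed under the filter, at 192, 84.6, 878 and 1.80 in the tumors against 0 to 3.75 in tolerant muscle. With total-read scaling 5595 genes were called higher and 2196 lower, in place of 3264 and 3502.

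Muscle away from a tumor could be tested without the tumor values that led to the choice of these genes, although in both species the control libraries carried dual indices and those of tumor bearers single ones, so that library type and group cannot be told apart. In tumor-bearing UIS against control Spalax, 0 of 4 members were called, beside 0% of 13909 genes (limma; 2315 genes at an unadjusted p under 0.05, 0 by edgeR and 516 by DESeq2). At an unadjusted p under 0.05 there was 1 member, Igf2bp2, which was higher by 1.20 (SE 0.37, limma adjusted p = 0.216), with the 4 UIS libraries (35.3 to 53.3) above the 4 controls (10.9 to 26.2). Neither edgeR nor DESeq2 called a member there (0 each). Lin28a differed by -1.17 (SE 1.12, adjusted p = 0.604 in limma), with 3 of the 4 UIS libraries inside the range of the controls and the fourth at 0.

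The muscle of tolerant animals showed no called member against control (0 of 4 in limma, edgeR and DESeq2, and 0 at an unadjusted p under 0.05), beside 0% of 14020 genes in limma (733 at an unadjusted p under 0.05, 0 by edgeR and 60 by DESeq2). Igf2bp2 had the largest difference, 0.67 (SE 0.42, limma adjusted p = 0.923). Hmga2 and Igf2bp1 could not be tested at 0 to 3.75 normalised counts. In mice, UIS against control gave 0 of 3 members and 0% of 14792 genes in limma (1621 genes at an unadjusted p under 0.05, 0 by edgeR and 342 by DESeq2), and 0 members in edgeR and in DESeq2. Hmga1 was at an unadjusted p under 0.05, higher by 0.89 (SE 0.37, limma adjusted p = 0.453), and all 3 UIS libraries (392, 507 and 1030) lay above the 3 controls (313 to 320).

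Between fibrosarcoma and granuloma, limma called 0 of 5 members tested, edgeR and DESeq2 called 0 as well, and 0 had an unadjusted p under 0.05. Of all 14562 genes 0% were called (591 at an unadjusted p under 0.05, 0 by edgeR and 153 by DESeq2). The differences of fibrosarcoma against granuloma ran from -3.05 (SE 2.74) for Igf2bp2 to 0.65 (SE 0.77) for Igf2bp3 on the log2(value + 1) scale. In edgeR on the recovered reads they ran from -0.02 for Igf2bp2 to 2.51 for Hmga1, and Hmga2 (-1.38 in limma, 1.65 in edgeR) and Igf2bp1 (-0.60 and 2.12) changed sign, so no direction is given. Tumor 2240 exceeded both granulomas in all 5 members while tumor 2230 lay below both in 4 of them. The difference between Spalax and mouse fibrosarcoma in the change from UIS to IS, formed from differences within each of the 2 separately normalised tables, called 3.95% of 11085 genes (438, or 38 with the animal as a block) but 0 of the 3 members tested (edgeR 0, DESeq2 0, and 0 at an unadjusted p under 0.05). Without Spalax tumor 2240 the differences were -4.10 for Hmga1 and -7.97 for Igf2bp2, which for Spalax rest on the tumor of animal 2230 alone.

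The split between the 2 Spalax fibrosarcomas reached beyond the 7 genes. On the log2(value + 1) scale, tumor 2240 exceeded tumor 2230 by 6.05 for Hmga1, 8.29 for Hmga2, 9.30 for Igf2bp1, 8.29 for Igf2bp2 and 0.99 for Igf2bp3. Over the 14867 genes at 10 or more in either tumor the median difference was near 0 (-0.0026), with 15.7% of genes more than 2-fold higher in tumor 2240 and 17.5% in tumor 2230. The summed proliferation markers were alike, at 17112 and 18061. The fibroblast sums were 115072 and 432156 and the macrophage sums 8204 and 32013 in tumors 2240 and 2230. With 1 library each, no test was possible, and sex and time differ between the 2 animals as well.

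Of the 20 known let-7 targets measured there, 8 were more than 2-fold higher in tumor 2240 and none in tumor 2230 (median 0.77). Cdk6, a kinase that drives entry into S phase, stood at 7499 in tumor 2240 and 19.2 in tumor 2230, and Peg10, an imprinted gene derived from a retrotransposon, at 2418 and 8.40. In the granulomas they stood at 206 and 190 (Cdk6) and 821 and 309 (Peg10), and in Spalax libraries without a tumor at 2.68 to 23.3 and 5.29 to 54.7. These are the libraries in which Hmga2 and Igf2bp2 were high. Ccnd2 (819 and 73.2), Igf1r (336 and 86.4) and Ccnd1 (524 and 157) had the same order. Cdk6 and Peg10 were picked here for their size after the values were seen.

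**Figure D4:**
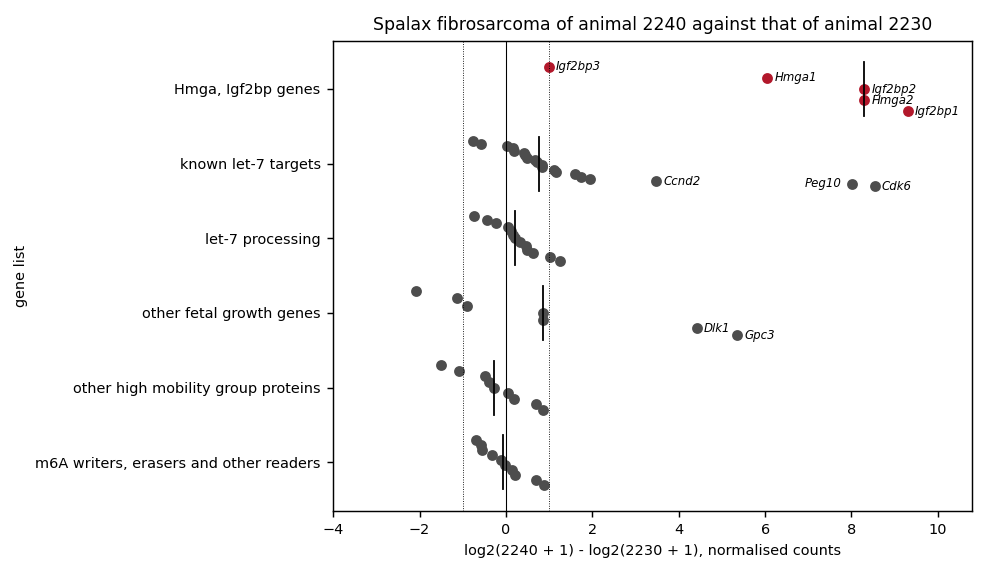
Difference between the fibrosarcomas of Spalax 2240 and 2230, log2(2240 + 1) minus log2(2230 + 1), for each gene of 6 lists; points are genes, the short vertical line is the list median and the dotted lines mark a 2-fold difference. Hmga1, Hmga2, Igf2bp1 and Igf2bp2 lie between 6.05 and 9.30, beside Peg10 (8.01) and Cdk6 (8.54), while the 10 m6A genes stay within 2-fold.

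The counts of the gene lists below stand beside the share of all genes called, and whether a list differs from all genes was not tested. Of the known let-7 targets, 7 of 20 rose in granuloma (11.7% of all genes rose) and 0 fell, led by the D cyclins Ccnd2 (6.68, SE 1.15) and Ccnd1 (6.14, SE 0.95), with a list median of 1.19 against -0.01 over all genes. In Spalax fibrosarcoma, 6 of 20 rose (17.4% of all genes), led by the phosphatase Cdc25a (3.78, SE 0.48) and the helicase Dna2 (3.52, SE 0.45), and 2 fell, Hras (-1.92, SE 0.32) and the insulin receptor gene Insr (-1.85, SE 0.35), with a median of 1.41 against 0.03. In mice, 14 of 22 rose (22.8% of all genes), led by Peg10 (5.85, SE 0.98) and Ccnd1 (5.46, SE 1.07), and 2 fell, Insr (-2.09, SE 0.40) and Hras (-1.14, SE 0.28), with a median of 1.70 against 0.11. Several of these genes also serve proliferation, whose markers rose in all tumors, and the share of either was not tested.

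Against tolerant muscle, 10 of 20 let-7 targets rose (22.4% of all genes), led by Cdk6 (5.01, SE 1.53) and Ccnd2 (4.07, SE 1.01), and Hras (-1.81, SE 0.29) and Insr (-1.49, SE 0.48) fell. The median was 1.83, against 0.06 over all genes. The genes that make or destroy let-7 were called at shares near or under those of all genes in the Spalax comparisons. In granuloma 2 of 13 fell (12.6% of all genes), Dicer1 (-1.89, SE 0.36), the RNase that cuts the precursor, and Zcchc11 (-1.56, SE 0.33), a uridylyltransferase that LIN28 recruits. Dicer1 alone fell in Spalax fibrosarcoma (-1.23, SE 0.21; 1 of 13, with 19% of all genes). Against tolerant muscle, where 22.4% of all genes rose and 24% fell, Ago1 (1.10, SE 0.32) and Khsrp (0.83, SE 0.22) rose, and Dicer1 (-0.83, SE 0.20) and Drosha (-0.55, SE 0.20) fell.

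In mouse tumors 5 of 15 of these genes rose and 2 fell (22.8% and 22.3% of all genes). Trim71, which is both an embryonic ubiquitin ligase and a let-7 target, had the largest rise (5.40, SE 1.14). It stood at 103, 56.9 and 400 in the tumors, at 12.1, 0 and 1.44 in the UIS and at 0 in controls. Trim71 is counted in both lists and passed the filter only with the tumor values, so nothing is read from its call. In Spalax it was 0 in 15 of 16 libraries and 1.23 in tumor 2240. Khsrp rose by 1.39 (SE 0.26), and Ago4 (-1.46, SE 0.34) and the exonuclease Dis3l2 (-1.33, SE 0.42) fell.

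Other genes of fetal growth did not go together. The shares of all genes called higher and lower were 11.7% and 12.6% in granuloma and 17.4% and 19% in Spalax fibrosarcoma. They were 22.8% and 22.3% in mice and 22.4% and 24% against tolerant muscle. Mdk, which encodes the growth factor midkine, rose in granuloma (2.46, SE 0.41; 1 of 7 called), in Spalax fibrosarcoma (2.03, SE 0.41), against tolerant muscle (2.32, SE 0.48) and in mouse tumors (5.09, SE 1.12). Igf2, whose messenger RNA gave the IGF2BP family its name, fell in Spalax fibrosarcoma (-4.27, SE 0.81), to 14.8 in tumor 2240 and 65.4 in tumor 2230 from 794 and 486 in the UIS, as did Mest (-2.73, SE 0.55), so that 1 of 7 rose and 3 fell there. Igf2 reached 17165 in granuloma 600 and 56293 in mouse tumor 512, against 89.4 in granuloma 976 and 157 to 424 in the other mouse tumors, so the tumors with high Igf2bp2 held Igf2 both above and below the level of their UIS (382 in animal 600, 211 in animal 976, 446 to 688 in the mice). Tpbg, an oncofetal surface protein gene, rose in mouse tumors (5.72, SE 1.42) and against tolerant muscle (1.98, SE 0.43), where Dlk1 (-3.88, limma adjusted p = 0.0466) and Peg3 (-1.73, SE 0.57) fell. In mice 4 of 10 rose, and Sall4 fell, from 33.1 to 72.6 in the UIS to 0 in every tumor. Sall4 passed the filter only through the UIS, and nothing is read from its call.

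Of the high mobility group proteins outside the HMGA family, limma called 0 of 9 in granuloma, with 11.7% of all genes called higher and 12.6% lower. Hmgb3 (1.63, SE 0.54) was the sole one of the 9 at an unadjusted limma p under 0.05. Of the same 9, 3 rose in Spalax fibrosarcoma (17.4% of all genes), led by Hmgb2 (2.54, SE 0.27) and Hmgb3 (2.21, SE 0.52). In mice 4 rose (22.8% of all genes), led by the nucleosome binder Hmgn3 (3.39, SE 0.63) and Hmgb2 (2.28, SE 0.46). Against tolerant muscle 4 rose (22.4% of all genes), led by Hmgb3 (1.64, SE 0.31) and Hmgb2 (1.56, SE 0.54). Hmg20b alone fell there (-0.73, SE 0.25), with 24% of all genes. Tumor 2230, low in Hmga1 and Hmga2, held Hmgb2 at 3740, above the 2668 of tumor 2240. The m6A genes were called lower at shares near or under those of all genes. The calls were the demethylase genes Fto in granuloma (-2.21, SE 0.36; 1 of 10, with 12.6% of all genes), Fto (-2.26, SE 0.31) and Alkbh5 (-1.27, SE 0.23) in Spalax fibrosarcoma (2 of 10, with 19%), and Alkbh5 in mice (-1.24, SE 0.34; 1 of 10, with 22.3%). Against tolerant muscle both fell (-1.64, SE 0.29, and -1.04, SE 0.30), with 24% of all genes. There 3 of 10 rose, with 22.4% of all genes, led by Ythdc2 (0.99, SE 0.26) and Wtap (0.71, SE 0.20).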

How the data were processed

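Total RNA was sequenced from 25 biopsies, with strand-specific, single-end libraries. The submitters' processing notes name TopHat 1.4.1, HTSeq, DESeq and, for mice, GRCm38, while the methods name TopHat2 and, for Spalax, its published genome. The deposited values are a signal that the authors made by dividing read counts per gene by 1 size factor per library. In 2387 Spalax gene names a comma was read as the letter t, and values were taken from the end of each line. All values were whole multiples of 1 read (100% within 0.01 of a read), and reads were recovered from this step. The 7 genes and all lists were chosen with earlier results of these data known.

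The main test was limma 3.58.1 with trend (R 4.3.3) on log2(value + 1), over genes with a value of at least 10 in a number of libraries equal to the size of the smaller group, with Benjamini-Hochberg adjusted p of at most 0.05. Fold changes on this scale understate those of low genes. Alternatives were edgeR 4.0.16 and DESeq2 1.42.0 on recovered reads, no filter, a pseudocount of 0.1, total-read scaling, 1 model over a species, the animal as a block and leaving out each library. The limma, edgeR and DESeq2 fits of 1 group against another were tested on simulated reads. The other steps had no such test. Same-numbered IS and UIS libraries come from 1 animal; their deviations had correlations of 0.00925 in granuloma, -0.00186 in fibrosarcoma and 0.0469 to 0.178 in mice. Named genes were the members, the 2 called genes with the largest rise and fall in each of 5 lists and the 2 most like each member; marker lists are given as sums and counts. Positions, exon lengths and 3′ UTRs came from GENCODE vM21 (GRCm38). Intervals of ratios are exact at 95%, and the floor is 3 reads. Libraries within a group are separate animals, and p-values measure the spread among them. The main test treated the IS and UIS of 1 animal as independent, and only the alternative with the animal as a block used the pairing. Control and tolerant libraries carried dual indices and those of tumor-bearing animals single ones, so index and group cannot be told apart.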

Additional observations from a re-analysis of the deposited data

Results flagged for a closer look

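In the Spalax controls Igf2bp1 was 0.899 normalised counts in animal 1075 and 0 in the other 3, so that this library lay apart from its group. It rests on 1 read. With 3 values of 0, any read in the other library would have been flagged, so nothing is read from it.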

How the results depend on the processing

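The number of members called in granuloma was 2, with 3 under DESeq2 and 3 under total-read scaling, which add Hmga1, and fell to 0 (lowest 0, highest 0) when any 1 library was left out, where the lone sample of an arm is assumed to vary like the other. In Spalax fibrosarcoma it was 1, with 2 under DESeq2, 2 under total-read scaling, and 0 to 6 with 1 library left out; Igf2bp2 (0.97) turned to -3.18 without tumor 2240 and was 5.11 without tumor 2230. DESeq2 added Hmga1 there (3.76) and total-read scaling Igf2bp3 (1.38), with 6358 and 6850 of 14696 genes called. For Spalax tumors against tolerant muscle, edgeR called 6422 of 14578 genes, DESeq2 7317, total-read scaling 7791 and 1 model over the species 7694. Without the filter 6988 of 21703 genes were called, and members under the filter entered. The number of members called in this comparison was 1, with 2 under edgeR, 3 under DESeq2 and 3 without the filter. It was 2 under total-read scaling, 2 in 1 model over the species and 1 to 4 with 1 library left out. For the difference between species it was 0, and 0 to 2 with 1 library left out. In mice it was 3, and 2 to 3 under every alternative. The 3 under DESeq2 held Igf2bp3 in place of Hmga2. With the animal as a replicate block the counts were 2, 1, 3 and 0, as without it, and the block changed the call of no member. The cause of these changes was not tested. DESeq2 called 516, 60, 153 and 342 genes where limma called 0 (UIS against control, tolerant against control, the tumor types, mouse UIS against control), and 5383 in place of 3581 in granuloma and 1711 in place of 438 for the difference between species; that last count was 286 under total-read scaling and 38 with the block. In 1 model over the species, 6314 genes were called in granuloma, and 1, 1 and 19 where limma called 0 in the first 3 of those comparisons. Without the filter 2 were called for tolerant against control, and without control M2 4 for mouse UIS. With 1 library left out the count for the difference between species was 4 to 787. With fewer libraries left the filter asks for fewer, and more members passed it in some of these fits.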
